A study of Mus musculus with 24 samples.

Results

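The mouse chemokines and their receptors were examined in white fat as 45 genes of the 35275 in the deposited expression table. They were chosen by symbol (names beginning with Ccl, Ccr, Cxcl, Cxcr, Cx3cl, Cx3cr, Xcl, Xcr or Ackr followed by a digit), by a protein-coding label, and by a mean of at least 0.5 FPKM over all 24 libraries. FPKM is a read count scaled by gene length and library size, so levels are per length. The symbols matched 63 rows, of which 60 were protein-coding; 15 of those had a mean under 0.5 FPKM. Just inside the limit were Ccl17 at a mean of 0.534 FPKM and Ackr4 at 0.744 FPKM, and just outside it were Ccr3 at 0.466 FPKM and Ccl28 at 0.430 FPKM. The other 13 below the limit were Xcr1, Ccr9, Ccr8, Ccr4, Cxcr1, Cxcl17, Ccr1l1, Ccl26, Ccl1, Ccl20 and Cxcl15, and Ccl21b and Ccl27b, both listed at 0. The 3 matching rows that were not protein-coding were Ccl19-ps1, Ccl19-ps3 and Cxcl11, which the table calls a polymorphic pseudogene. The members were 17 CC ligands, 12 CXC and other ligands, 6 CC receptors, 6 CXC and other receptors and 4 atypical receptors.

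The study sequenced total RNA from pads of gonadal and inguinal white fat of mice with a conditional adipose FoxO1 knockout and of control mice carrying the floxed FoxO1 allele, to look for genes and pathways under the control of FoxO1, a forkhead transcription factor that leaves the nucleus when insulin acts. Each of the 4 groups held 3 mice: knockout gonadal, knockout inguinal, control gonadal and control inguinal. Mice M5, M9 and M12 were knockouts and M6, M7 and M10 were controls, numbered as in the column names, whose M number was taken as the animal. Each pad had 2 libraries, which were averaged, so that the mouse was the replicate. The sources used here do not give the promoter that drove Cre, nor the age or sex of the mice.

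Chemokines are small secreted proteins that guide leukocytes along gradients by way of G protein-coupled receptors. CC and CXC ligands are named by the spacing of their first cysteines. Many serve cells recruited in inflammation (Ccl2 and Ccr2 for monocytes, Cxcl1, Cxcl2 and Cxcl5 with Cxcr2 for neutrophils, Ccl11 and Ccl24 with Ccr3 for eosinophils), and others place lymphocytes in lymph nodes (Ccl19 and Ccl21 with Ccr7, Cxcl13 with Cxcr5). Atypical receptors (Ackr1 to Ackr4) bind chemokines without the usual G protein signal and scavenge or carry them. In fat, chemokines are best known for drawing macrophages into the tissue in obesity.

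The genes lay mostly in clusters (mm10 coordinates of the deposited table). On chromosome 11, Ccl2 (chr11:82035571-82037453), Ccl7, Ccl11, Ccl12 and Ccl8 (chr11:82115185-82116799) stood next to each other on the plus strand. A second group on the same chromosome held Ccl5 (chr11:83525778-83530518), Ccl9, Ccl6, Ccl3 and Ccl4 (chr11:83662584-83664683). Chromosome 5 carried Cxcl5, Cxcl3, Cxcl1 and Cxcl2 (chr5:90759299-90761625 to chr5:90903899-90905909) and then Cxcl9, Cxcl10 and Cxcl13. Chromosome 9 carried Ccr1 and Ccr2 (chr9:123962126-123968692 to chr9:124101950-124113557) besides Cxcr6, Cx3cr1, Ackr2, Ackr4 and Cxcr5. Gene models of 10 members overlapped another gene (Ccl2, Ccl6, Ccl19, Ccl21a, Ccl27a, Cxcl10, Cxcl16, Ccr10, Cxcr6 and Ackr4), and the Cx3cr1 model spanned 5 others. The sources used here do not say whether counting used strand, so reads of such pairs may not have been separated. Ccl21a and Ccl27a have near-identical copies, Ccl21b and Ccl27b, and the values of both are uncertain for that reason.

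Promoters of 33 of the 45 members were matched by symbol in RefSeq (GRCm38.p6, 250 bases before to 50 after the gene start; some genes have several starts, 37 promoters in all). The following 6 are shown because Cxcl1, Cxcl2 and Cxcl3 are neighbours with much higher levels in gonadal than in inguinal fat, Cxcl10 holds both inflammatory motifs, and Ccl6 and Ccl9 had the lowest inguinal levels in knockouts relative to controls. They are chr5:90890995-90891294, plus strand; chr5:90903649-90903948, plus strand; and chr5:90785851-90786150, plus strand for Cxcl1, Cxcl2 and Cxcl3. For Cxcl10, Ccl6 and Ccl9 they are chr5:92348840-92349139, minus strand, then chr11:83593038-83593337, minus strand, then chr11:83578587-83578886, minus strand. Capitals mark motif matches, and each sequence reads 5′ to 3′ along the gene.
Cxcl1: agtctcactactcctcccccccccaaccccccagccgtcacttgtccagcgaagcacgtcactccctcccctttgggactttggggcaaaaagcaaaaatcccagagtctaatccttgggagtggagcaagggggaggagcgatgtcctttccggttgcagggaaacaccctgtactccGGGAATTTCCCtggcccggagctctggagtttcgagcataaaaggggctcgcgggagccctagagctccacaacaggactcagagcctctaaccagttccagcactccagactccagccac
Cxcl2: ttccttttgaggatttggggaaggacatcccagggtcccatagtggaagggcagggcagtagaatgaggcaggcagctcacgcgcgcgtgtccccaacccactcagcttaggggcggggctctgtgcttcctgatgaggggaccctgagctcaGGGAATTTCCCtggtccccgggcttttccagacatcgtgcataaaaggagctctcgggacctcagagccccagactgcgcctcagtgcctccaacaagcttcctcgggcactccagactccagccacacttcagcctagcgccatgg
Cxcl3: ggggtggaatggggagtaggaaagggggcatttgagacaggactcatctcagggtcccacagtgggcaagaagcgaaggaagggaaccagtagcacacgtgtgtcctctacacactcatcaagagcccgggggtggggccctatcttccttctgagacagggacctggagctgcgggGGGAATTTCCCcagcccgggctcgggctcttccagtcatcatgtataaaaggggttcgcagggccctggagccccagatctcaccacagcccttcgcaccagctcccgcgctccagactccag
Cxcl10: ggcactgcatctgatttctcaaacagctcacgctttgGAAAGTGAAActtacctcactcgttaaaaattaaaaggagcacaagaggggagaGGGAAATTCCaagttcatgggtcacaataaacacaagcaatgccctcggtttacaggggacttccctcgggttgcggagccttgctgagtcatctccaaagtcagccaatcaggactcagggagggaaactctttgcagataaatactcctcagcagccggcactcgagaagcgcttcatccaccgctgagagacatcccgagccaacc
Ccl6: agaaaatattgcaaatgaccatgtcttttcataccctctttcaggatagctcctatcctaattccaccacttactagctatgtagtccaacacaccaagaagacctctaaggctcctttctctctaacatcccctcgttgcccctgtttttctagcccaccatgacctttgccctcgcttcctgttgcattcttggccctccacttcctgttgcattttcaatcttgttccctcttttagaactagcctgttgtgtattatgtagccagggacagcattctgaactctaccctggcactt
Ccl9: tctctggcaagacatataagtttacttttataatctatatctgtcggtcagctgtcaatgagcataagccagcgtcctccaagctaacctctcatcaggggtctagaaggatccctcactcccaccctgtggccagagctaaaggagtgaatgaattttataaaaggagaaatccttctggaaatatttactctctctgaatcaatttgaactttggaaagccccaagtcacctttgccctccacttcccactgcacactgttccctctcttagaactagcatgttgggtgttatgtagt

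Both strands were searched for 3 motifs. The NF-kappaB form (GGGA, then any 2 bases, then TTCC) was in 4 of the 37 member promoters (10.8%), against 1.47% of all 32851 promoters of the same length. Counted from the gene start, it began at -71 in Cxcl1, -97 in Cxcl2, -73 in Cxcl3 and -159 in Cxcl10. In Cxcl1, Cxcl2 and Cxcl3 the 11 capitals hold 2 overlapping matches, 1 on each strand and offset by 1 base. The interferon-response form (GAAA, then any 2 bases, then GAAA) was in 3 member promoters (8.11%; Ccl19, Cxcl10 and Cxcl14), against 3.44% of all. The FoxO form GTAAACA was in 0 of the 37, against 3.65% of all promoters, so these letters are not in these windows. No capitals stand in Ccl6 and Ccl9 for that reason: none of the 3 forms was found there.

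Depth was 14953657 to 25438811 reads on genes per library. Libraries of the same pad correlated at 0.991 to 0.996 over genes, and libraries of different mice in the same group at 0.897 to 0.985. Foxo1 was lower in the knockouts, as the labels say: 4.07, 4.46 and 4.01 FPKM in knockout gonadal pads, against 13.6, 7.87 and 9.53 FPKM in control gonadal pads. In inguinal pads it was 4.12, 2.49 and 5.69 FPKM in knockouts, against 19.7, 13.0 and 14.5 FPKM in controls. Both pairs of groups were apart without overlap (two-sided exact permutation p = 0.1 each, the smallest that 3 against 3 mice allow), while the adjusted p over all genes was 0.402 in gonadal and 0.147 in inguinal fat. Adipocyte markers were high throughout, with sums of 12477 to 17911 FPKM in knockout and 11018 to 13674 FPKM in control gonadal pads, and 24198 to 30545 FPKM in knockout and 26430 to 40431 FPKM in control inguinal pads. Some pads stood apart. Gonadal pads of knockout M12 and controls M6 and M10 held transcripts of the male tract (summed level 6594, 687 and 3657 FPKM, against 1.12 to 2.81 FPKM in the other 3). Inguinal pads of knockout M9 and control M7 were low in lymphocyte transcripts. Their T and NK cell markers summed to 9.45 and 9.92 FPKM, against 219 to 327 FPKM in the other inguinal pads. Their B cell markers summed to 76.5 and 41.1 FPKM, against 350 to 651 FPKM.

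The level of the family differed widely between its members and between the depots. In gonadal pads the 29 ligands summed to 2623, 1901 and 1355 FPKM in knockouts and to 1687, 2729 and 2298 FPKM in controls. In inguinal pads they summed to 360, 155 and 506 FPKM in knockouts and to 702, 250 and 521 FPKM in controls. The 16 receptors summed to 133 to 208 FPKM in knockout and 194 to 231 FPKM in control gonadal pads. The 3 myeloid CC ligands Ccl6, Ccl8 and Ccl9 made up 75.1%, 68.8% and 69.5% of the ligand sum in knockout gonadal pads, and 70.7%, 67.5% and 66.7% in control gonadal pads. In inguinal pads their share was 21.8%, 26.7% and 16.5% in knockouts, against 39.2%, 50.1% and 41.6% in controls, and the inguinal groups did not overlap.

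**Figure D1:**
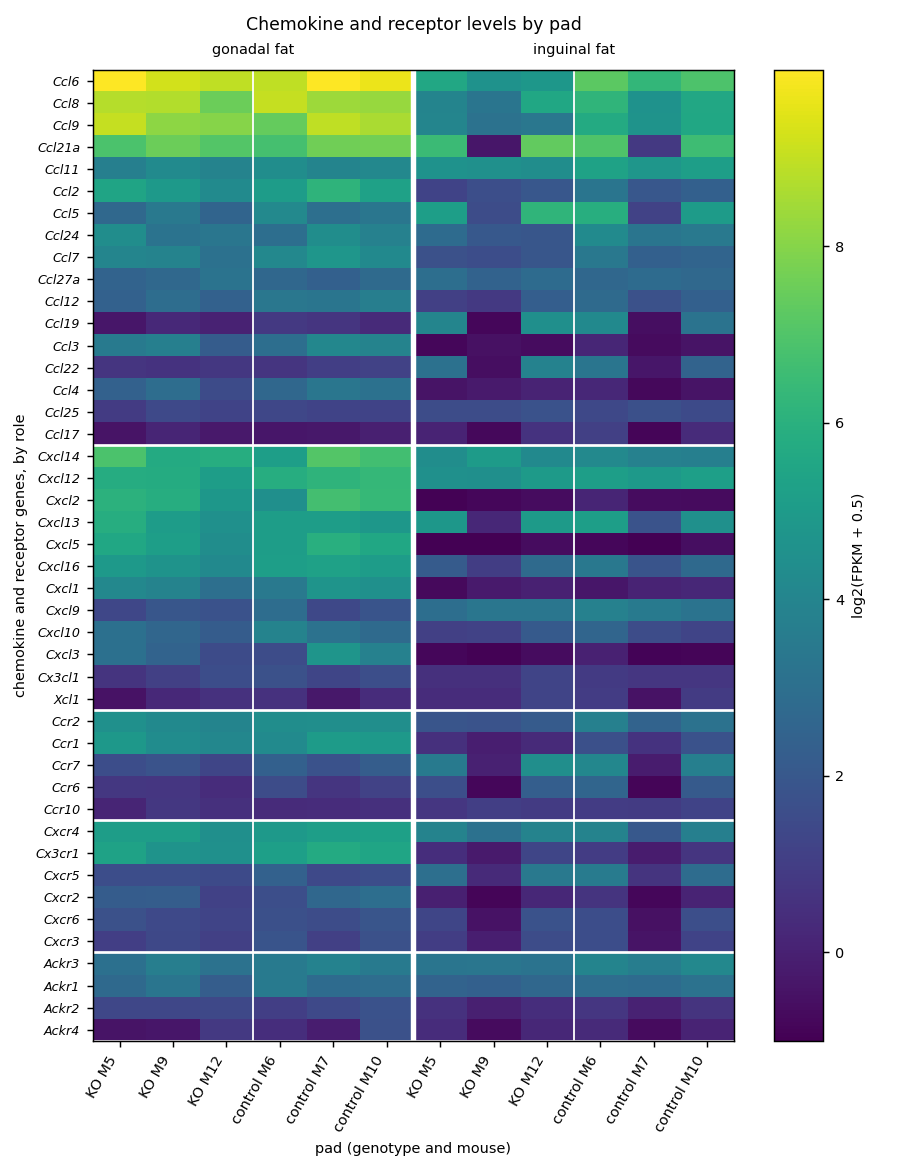
Levels of 44 members by role in the 12 fat pads, on a colour scale of log2(FPKM + 0.5), with knockout pads left of control pads within each depot. Ccl6, Ccl8 and Ccl9 are the brightest rows in gonadal fat, and the inguinal pads of knockout M9 and control M7 are dark for Ccl19, Ccl21a, Ccl22, Cxcl13, Ccr6 and Ccr7.

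The highest single members were CC ligands. Ccl6, a mouse and rat chemokine of macrophages that acts through Ccr1, was at 1007, 606 and 497 FPKM in knockout gonadal pads and at 496, 1022 and 829 FPKM in control gonadal pads. Ccl8, a ligand of Ccr8 in the mouse, was at 438, 425 and 186 FPKM in knockout gonadal pads and at 527, 331 and 317 FPKM in control gonadal pads. Ccl9, the neighbour of Ccl6 and also a Ccr1 ligand, was at 524, 276 and 259 FPKM in knockout gonadal pads and at 169, 489 and 387 FPKM in control gonadal pads. The knockout and control pads overlapped for all 3. Next were Ccl21a, the Ccr7 ligand made by lymphatic vessels and lymph node stroma (117 to 185 FPKM in knockout and 108 to 202 FPKM in control gonadal pads), and Cxcl14, an epithelial and stromal chemokine (51.9 to 119 FPKM in knockout and 35.3 to 132 FPKM in control gonadal pads). Cxcl12, the stromal ligand of Cxcr4 and Ackr3, was at 34.4 to 55.5 FPKM in knockout and 56.8 to 80.7 FPKM in control gonadal pads, without overlap. Among the highest receptors in gonadal fat were Cx3cr1 and Cxcr4, found on monocytes, macrophages and many other leukocytes. Cx3cr1 was at 22.2 to 40.3 FPKM in knockout and 36.3 to 52.1 FPKM in control gonadal pads, and Cxcr4 at 21.8 to 34.4 FPKM in knockout and 29.9 to 37.3 FPKM in control gonadal pads.

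The depots were compared over all 12 pads with the genotypes averaged. In a limma fit of log2(FPKM + 0.5) over the 14577 genes with a mean of at least 0.5 FPKM, 28 of the 45 members (62.2%) differed between gonadal and inguinal fat at an adjusted p under 0.05, near the 64.0% of all genes tested. Of these, 24 were higher in gonadal fat (53.3% of the members, against 44.5% of all genes) and 4 were lower (Ccl11, Ccl25, Ccr10 and Cxcl9, against 19.5% of all genes). At an unadjusted p under 0.05 the counts were 25 higher (against 47.0%) and 4 lower (against 20.5%). The median gonadal minus inguinal log2 difference was 1.17 over the members and 0.23 over all genes. That all-gene median was -0.12 with quantile normalization, 0.03 in edgeR and 0.02 in DESeq2, and the split of called members was then 23 higher and 9 lower, 23 and 7, and 23 and 10, so the count of lower members moved with the scaling. Genes called in either direction then numbered 9388, 9013 and 9263 of the 14577, against 9323 with the main settings. Their split into higher and lower was counted only with the main settings. The samples are of whole tissue, in which more cells of a type and more RNA per cell cannot be told apart.

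The widest gaps were in Cxcl2 and Cxcl5, CXC ligands of neutrophils. Cxcl2 was at 66.2, 58 and 27.9 FPKM in knockout and 21.8, 104 and 81.8 FPKM in control gonadal pads, while its inguinal pads had 0.03 to 0.15 FPKM in knockouts and 0.13 to 0.59 FPKM in controls, 1 to 25 reads each. The difference was 6.31 ± 0.37 on the log2(FPKM + 0.5) scale (SE, adjusted p = 5.3e-07). Cxcl5 had 20.6 to 45.8 FPKM in knockout and 33.9 to 60.4 FPKM in control gonadal pads and at most 9 reads in any inguinal pad, with a difference of 6.11 ± 0.20 (SE, adjusted p = 1.86e-08). At such low inguinal levels the pseudocount of 0.5 keeps the difference smaller than the ratio of the levels. Cxcl1 stood 4.12 ± 0.26 higher (SE, adjusted p = 8.57e-07) and Cxcl3, which had 93 to 1148 reads per gonadal pad and 1 to 21 per inguinal pad, 3.55 ± 0.49 higher (SE, adjusted p = 0.00012). These 4 genes are neighbours on chromosome 5 and ligands of Cxcr2. Cxcr2 itself, the neutrophil receptor, was 2.26 ± 0.34 higher in gonadal fat (SE, adjusted p = 0.000228).

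Among receptors, Cx3cr1 was 4.65 ± 0.28 higher in gonadal fat (SE, adjusted p = 5.56e-07), with 22.2 to 52.1 FPKM in gonadal and 0.37 to 1.93 FPKM in inguinal pads. Its ligand Cx3cl1 was 0.57 ± 0.19 higher (SE, adjusted p = 0.0222). Ccr1, a receptor of Ccl3 and Ccl5 on macrophages, was 3.79 ± 0.24 higher (SE, adjusted p = 8.68e-07). Ccr2, the monocyte receptor, was 1.77 ± 0.19 higher (SE, adjusted p = 1.85e-05). Several CC ligands were also higher in gonadal fat: Ccl9 was 3.95 ± 0.32, Ccl3 3.89 ± 0.29, Ccl8 3.60 ± 0.42, Ccl6 3.56 ± 0.27 and Ccl2 3.11 ± 0.29 higher (SE), each in all 6 mice. Ccl5 was not among them, at -0.95 ± 0.92 (SE, adjusted p = 0.382) and higher in gonadal fat in 2 of 6 mice. All of the members named here but Cx3cl1 and Ccl5 had 6 gonadal pads above 6 inguinal pads, which held for 19 members (42.2%, against 29.5% of all genes). Macrophage markers moved with them, 14 of 15 being higher in gonadal fat at an adjusted p under 0.05 (median difference 2.68), as did all 8 neutrophil markers tested (median 3.53). Their part in the chemokine differences was not tested.

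Fewer members were higher in inguinal fat. Cxcl9, an interferon-induced ligand of Cxcr3, had 2.03, 3.35 and 2.87 FPKM in knockout and 7.16, 2.09 and 3.11 FPKM in control gonadal pads. Its inguinal pads had 7.45, 9.51 and 9.42 FPKM in knockouts and 13.7, 10.7 and 8.54 FPKM in controls, every one above every gonadal pad, the 1 member for which this held (against 11.7% of all genes). The gonadal minus inguinal difference was -1.48 ± 0.24 (SE, adjusted p = 0.000394). Cxcl10, the neighbouring gene with the same receptor, went the other way by 1.33 ± 0.30 (SE, adjusted p = 0.00298). Ccl11, the eosinophil chemokine eotaxin, had 12.8 to 18.9 FPKM in knockout and 14.9 to 20.3 FPKM in control gonadal pads, and 20.3 to 23.6 FPKM in knockout and 26.7 to 40.0 FPKM in control inguinal pads. It was lower in gonadal fat by -0.73 ± 0.13 (SE, adjusted p = 0.000544) and in each of the 6 mice. Ccl25 and Ccr10 were lower by -0.35 ± 0.11 and -0.51 ± 0.12 (SE, adjusted p = 0.0153 and 0.00456). The atypical receptors Ackr1 and Ackr3 did not pass the test between depots, with differences of 0.19 ± 0.18 and -0.13 ± 0.12 (SE, adjusted p = 0.351 and 0.375).

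**Figure D2:**
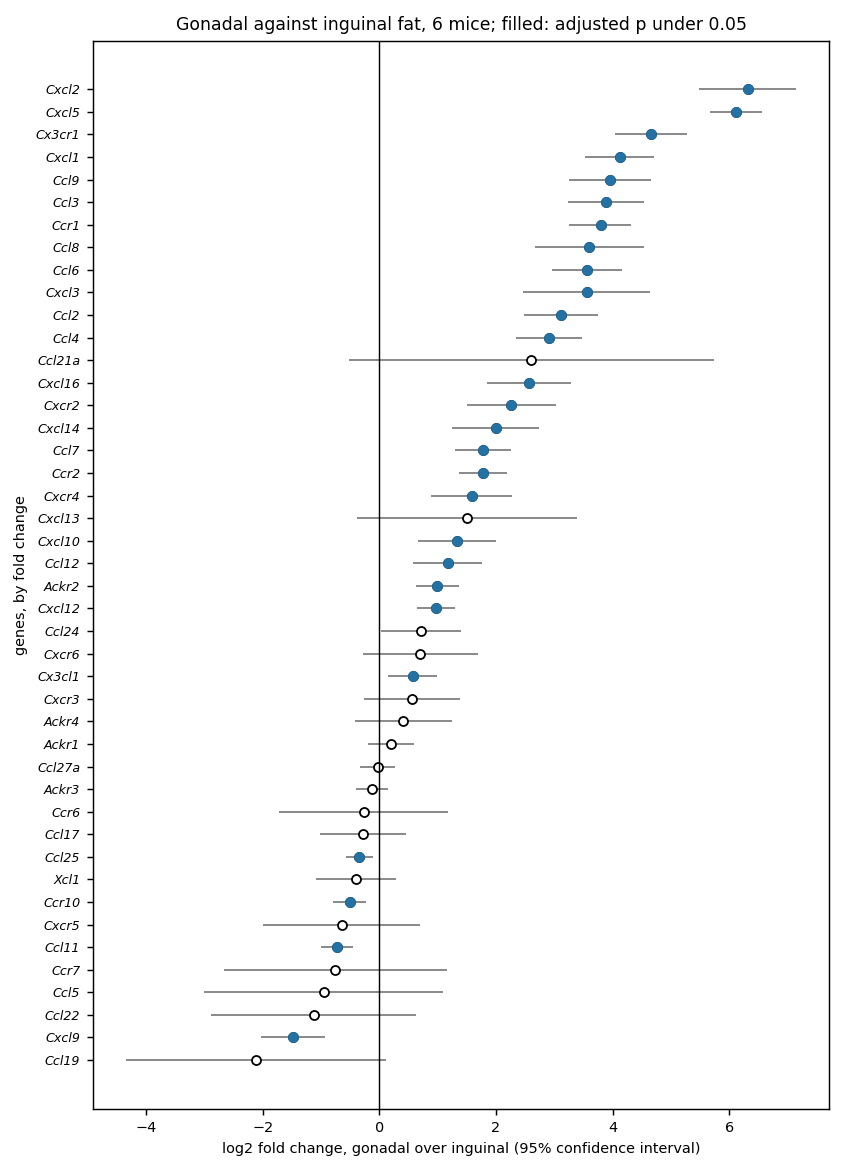
Difference between gonadal and inguinal fat (gonadal minus inguinal, log2(FPKM + 0.5)) for 44 members, with 95% confidence intervals from the fit over 12 pads; filled points have an adjusted p under 0.05. Cxcl2 and Cxcl5 lie beyond 6, the myeloid receptors Cx3cr1 and Ccr1 near 4, and Cxcl9 at -1.48, and genes with wide intervals are those that varied most between inguinal pads.

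In inguinal fat, no member and no gene of the 14577 (0.0%) reached an adjusted p under 0.05 between knockouts and controls. The lowest log2 fold changes were those of Ccl9 and Ccl6, at -1.82 and -1.80, while Cx3cr1, another myeloid member, was at 0.01. Ccl4 and Ccl3 were at 0.14 and -0.35, but with 2 to 19 reads per inguinal pad. Their group means, such as 0.136 FPKM in knockouts and 0.330 FPKM in controls for Ccl3, were under the pseudocount of 0.5, which holds such differences small. At an unadjusted p under 0.05, 11 members were lower (24.4%, against 11.8% of all genes) and 1 was higher (2.22%, against 3.4%). The 11 included Ccl6, Ccl9, Ccl24, Ccl11, Ccl7, Cxcl12, Ccr2, Ccr1, Ackr1 and Ackr3, and the 1 was Cxcl14. In 10 members all 3 knockout pads were below all 3 control pads (22.2%, against 16.9% of all genes), and in Cxcl14 all were above (against 5.15%). By direction alone, 33 of 45 members were below 0, about as for all genes (70.4%), with a median log2 fold change of -0.22 against -0.09 over all genes. Quantile normalization moved that all-gene median to 0.02 and left 28 members below 0. Leaving out each mouse gave 23 to 42 below 0, 23 without knockout M9 or control M6 and 42 without control M7. The all-gene median was then -0.05 without M9, -0.04 without M6 and -0.17 without M7. The skeletal muscle covariate gave 42 members below 0 and the macrophage covariate 14, with all-gene medians of -0.15 and 0.10.

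Ccl6 had 47.9, 23.8 and 28.1 FPKM in knockout inguinal pads, against 150, 76.5 and 123 FPKM in control inguinal pads. The highest knockout pad was below the lowest control pad, and means were 33.3 ± 12.8 and 116 ± 37.1 FPKM (SD, n = 3 mice each). The log2 fold change was -1.80 ± 0.35 (SE, adjusted p = 0.165 in limma). Ccl9 had 15.5, 8.24 and 9.67 FPKM in knockout inguinal pads, against 53.0, 24.8 and 46.0 FPKM in control inguinal pads, likewise without overlap, and a log2 fold change of -1.82 ± 0.36 (SE, adjusted p = 0.167). Ccl24, or eotaxin-2, had 6.66, 3.59 and 3.37 FPKM in knockout inguinal pads, against 18.5, 9.31 and 10.4 FPKM in control inguinal pads (-1.39 ± 0.35, SE, adjusted p = 0.193). Ccl7, a Ccr2 ligand, had 2.78, 2.54 and 3.37 FPKM in knockouts and 9.95, 4.63 and 5.30 FPKM in controls, again without overlap (-1.0 ± 0.29, SE, adjusted p = 0.229). The 2 other Ccr2 ligands did overlap: Ccl2 had 1.85, 2.66 and 3.44 FPKM in knockouts and 9.18, 3.43 and 4.66 FPKM in controls (-0.92 ± 0.38, SE, adjusted p = 0.346), and Ccl12 1.62, 1.25 and 4.35 FPKM in knockouts and 6.56, 2.85 and 4.62 FPKM in controls (-0.92 ± 0.47, SE, adjusted p = 0.435). Ccl11 had 23.6, 22.6 and 20.3 FPKM in knockouts and 40.0, 26.7 and 35.1 FPKM in controls, a narrower gap without overlap (-0.59 ± 0.16, SE, adjusted p = 0.208).

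Receptors of some of these ligands had the same direction in inguinal pads. Ccr2 had 3.20, 3.06 and 3.99 FPKM in knockouts, against 13.2, 5.24 and 8.29 FPKM in controls, a log2 fold change of -1.18 ± 0.33 (SE, adjusted p = 0.214). Ccr1, which binds Ccl6 and Ccl9, had 0.94, 0.44 and 0.74 FPKM in knockouts, against 2.74, 1.02 and 2.92 FPKM in controls (-1.11 ± 0.36, SE, adjusted p = 0.257). Neither overlapped between genotypes, and control M7 was the lowest control pad for both. The lymphoid receptors Ccr7, Cxcr5, Ccr6 and Cxcr6 had log2 fold changes of 0.09, -0.12, -0.22 and -0.02, each with an SE of at least 0.83.

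Stromal members gave smaller gaps with less scatter. Ackr3, the scavenger of Cxcl12, had 9.30, 9.59 and 8.51 FPKM in knockout inguinal pads, against 14.9, 12.3 and 16.9 FPKM in control inguinal pads, and means of 9.13 ± 0.56 and 14.7 ± 2.27 FPKM (SD, n = 3 mice each; log2 fold change -0.65 ± 0.13, SE, adjusted p = 0.165). Ackr1, found on venules and red cells, had 5.11, 4.71 and 5.86 FPKM in knockouts and 7.11, 6.75 and 8.41 FPKM in controls (-0.47 ± 0.13, SE, adjusted p = 0.209). Cxcl12 had 22.1, 22 and 30.9 FPKM in knockouts and 35.8, 29.3 and 36.3 FPKM in controls, so that the highest knockout pad was above the lowest control pad (-0.44 ± 0.16, SE, adjusted p = 0.305). Cxcl14 was the member on the other side, with 20.2, 31.9 and 18.1 FPKM in knockouts and 17.6, 13.8 and 13.1 FPKM in controls. Its groups did not overlap, but by a narrow margin (0.61 ± 0.24, SE, adjusted p = 0.319), and without the pad of M9, the highest, its log2 fold change was 0.37.

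**Figure D3:**
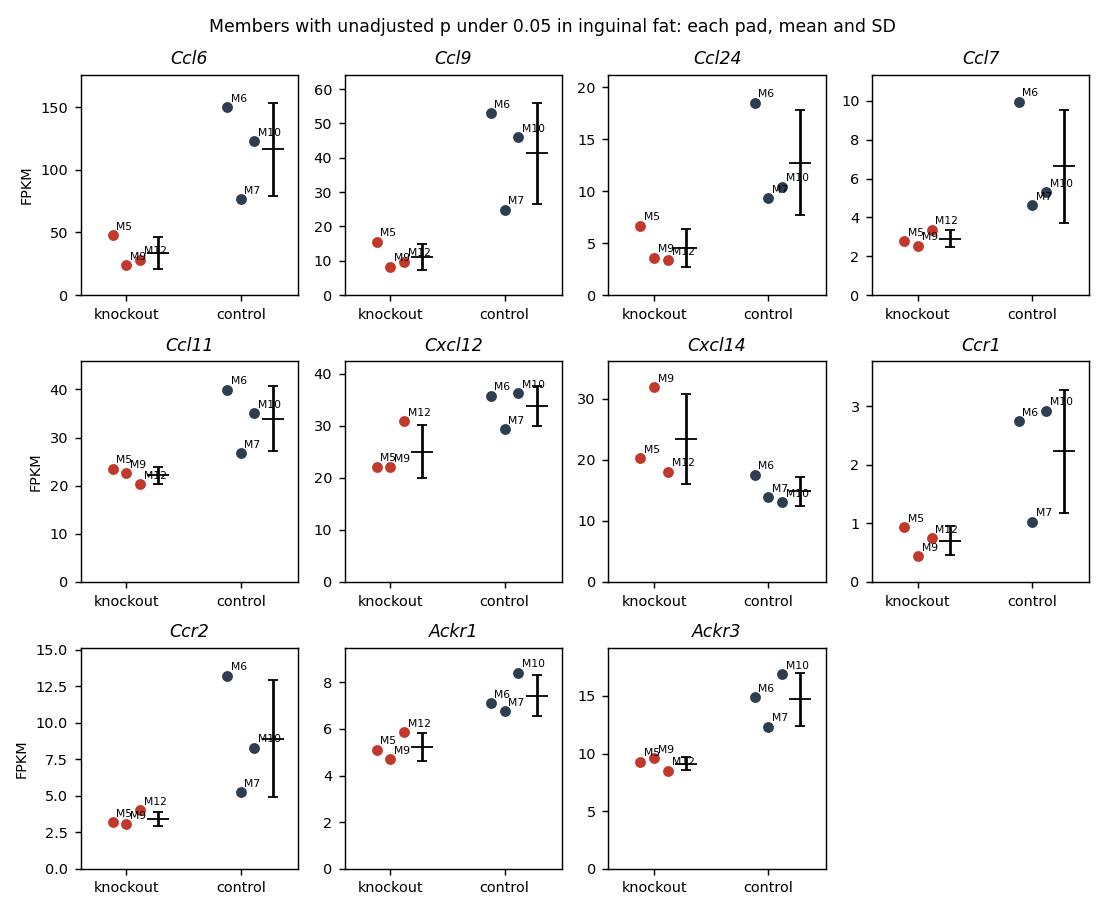
Levels (FPKM) of 11 members with an unadjusted p under 0.05 between genotypes in inguinal fat, 1 point per mouse, knockout left of control, with the group mean and SD beside the points. The control mean is higher for all but Cxcl14, and Cxcl12 is the only 1 of the 11 in which points of the genotypes overlap.

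Macrophage markers moved with this set. All 15 were lower in knockout inguinal pads (median log2 fold change -1.02, 11 of them at an unadjusted p under 0.05), and their summed level was 334 to 605 FPKM in knockout and 684 to 1454 FPKM in control inguinal pads. Emr1, which codes for the macrophage protein F4/80, had 3.23, 2.5 and 2.88 FPKM in knockouts and 10.9, 5.15 and 7.94 FPKM in controls. With the mean log2 level of the macrophage markers as a covariate, the log2 fold change was -0.61 for Ccl6, -0.59 for Ccl9, -0.28 for Ccl24, -0.03 for Ccl7, -0.05 for Ccr2 and 0.05 for Ccr1. It was -0.48 for Ackr3, -0.35 for Ackr1, -0.11 for Ccl11 and -0.14 for Cxcl12. In that fit 0 members were lower and 11 higher at an unadjusted p under 0.05, but the covariate itself separated the genotypes, with 6 pads in all. Over all 14577 genes in that fit, 1989 had an unadjusted p under 0.05 in either direction, and the median log2 fold change was 0.10. Red blood cell markers (2298 to 2559 FPKM in knockout and 3059 to 10525 FPKM in control inguinal pads) and mast cell and eosinophil markers (36.7 to 53.5 and 61.4 to 74.0 FPKM) also did not overlap between genotypes, nor did progenitor and fibroblast markers (830 to 950 FPKM in knockout and 1036 to 1495 FPKM in control inguinal pads). Skeletal muscle markers were at 17.9 to 365 FPKM in knockout and 109 to 820 FPKM in control inguinal pads. The part of these in the chemokine differences was not tested.

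In the authors' deposited table of genes called between genotypes in inguinal fat, 13 members were among 2220 genes. It lists 12 as lower in knockouts, among them Ccl2, and Cxcl14 as higher. Of its 2220 genes, 1195 are lower and 1025 higher, where 14577 genes were tested here. Ccl6 has a log2 fold change of -1.43 in the authors' deposited table and Ccl9 one of -1.50. The number of libraries per mouse bears on such calls: with the 6 libraries of a group taken as replicates, 13 members passed an adjusted p under 0.05 in limma, against 0 with mice, and DESeq2 on reads summed per mouse called 9, all lower in knockouts. Over all 14577 genes, 2265 passed with 6 libraries as replicates and 664 in DESeq2.

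In gonadal fat the knockout was tested in the same way, and again 0 members and 0 of the 14577 genes (0.0%) passed an adjusted p under 0.05. At an unadjusted p under 0.05, 5 members were lower (11.1%, against 4.45% of all genes) and 0 were higher (against 4.62%). These 5 were Ccl12, Ccl19, Cxcl16, Ccr7 and Cx3cr1. Of the 45 members, 40 had a log2 fold change below 0, against 56.1% of all genes, with a median of -0.31 against -0.03. In the same pads 11 of 12 adipocyte markers were above 0 (median 0.50, 8 higher at an unadjusted p under 0.05). Below 0 were 11 of 12 progenitor and fibroblast markers (median -0.34, 4 lower) and 14 of 15 macrophage markers (median -0.37, 1 lower). The part of the adipocyte markers and of the progenitor and fibroblast markers was not tested. With the mean log2 level of the macrophage markers as a covariate, 32 of the 45 members were below 0. The median over all genes was -0.03 in that fit too. Without mouse M12, whose gonadal pad had the lowest ligand sum, 35 were below 0 and the median was -0.19, and without the 3 pads that held male tract transcripts, which left 1 control, 31 were below 0.

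Ccl12, the mouse monocyte chemokine MCP-5, had 4.85, 7.20 and 4.76 FPKM in knockout gonadal pads, against 9.85, 9.13 and 12.3 FPKM in control gonadal pads. The pads did not overlap, and the log2 fold change was -0.85 ± 0.19 (SE, adjusted p = 0.402). Cxcl16, a membrane-bound ligand of Cxcr6, had 30.7, 24.6 and 18.4 FPKM in knockouts, against 35.0, 38.5 and 33.4 FPKM in controls, also without overlap (-0.55 ± 0.19, SE, adjusted p = 0.491). Ccl19 had 0.29, 0.69 and 0.53 FPKM in knockouts, against 1.28, 1.14 and 0.75 FPKM in controls, low values near the pseudocount (-0.64 ± 0.23, SE, adjusted p = 0.507). Its receptor Ccr7, of mature dendritic cells and naive T cells, had 2.55, 2.99 and 1.97 FPKM in knockouts and 4.62, 2.94 and 4.21 FPKM in controls, with 1 knockout pad above the lowest control pad (-0.55 ± 0.20, SE, adjusted p = 0.516). Without the 3 pads that held male tract transcripts it was -0.07 for Ccr7. Cx3cr1 had 40.3, 24.8 and 22.2 FPKM in knockouts and 36.3, 52.1 and 43.6 FPKM in controls, with overlap (-0.62 ± 0.25, SE, adjusted p = 0.548). Non-overlapping pads were found for 5 members, Ccl7, Ccl12, Ccl19, Cxcl12 and Cxcl16 (11.1%, against 7.7% of all genes), all lower in knockouts, and for 0 in the other direction (against 7.06%). The authors' deposited table for gonadal fat holds 6 members among 1808 genes (Cxcl16, Ccl12, Ccl7, Ccr7, Cx3cr1 and Cxcl12). All 6 are lower in knockouts. Of its 1808 genes, 818 are lower and 990 higher, where 14577 genes were tested here.

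The myeloid members that were low in knockout inguinal fat overlapped between genotypes in gonadal fat, apart from Ccl7. Ccl6 and Ccl9 had gonadal log2 fold changes of -0.16 ± 0.37 and 0.08 ± 0.47 (SE), Ccr2 -0.19 ± 0.15 and Ccr1 -0.31 ± 0.28 (SE, adjusted p from 0.762 to 0.982). Ccl7 had 15.5, 14.7 and 8.21 FPKM in knockout gonadal pads, against 17.3, 27.0 and 18.0 FPKM in control gonadal pads (-0.70 ± 0.29, SE, adjusted p = 0.559), and Cxcl12 a gonadal log2 fold change of -0.55 ± 0.23 (SE, adjusted p = 0.552). Macrophage markers were at 6834 to 11965 FPKM in knockout and 8935 to 13798 FPKM in control gonadal pads, red blood cell markers at 1612 to 4181 and 4224 to 13586 FPKM, and T and NK cell markers at 32.6 to 50.9 and 44.6 to 68.1 FPKM. Though the macrophage sums overlapped, 14 of the 15 markers had a gonadal log2 fold change below 0 (median -0.37). With the mean log2 level of the macrophage markers as a covariate, the gonadal log2 fold change was -0.17 for Cx3cr1, -0.19 for Cxcl16, -0.46 for Ccr7, -0.93 for Ccl12 and -0.84 for Ccl19. The part of the other markers was not tested. The difference between depots in the knockout effect was tested as an interaction. No member and no gene of the 14577 (0.0%) passed an adjusted p under 0.05, and 3 members had an unadjusted p under 0.05 with a higher fold change in gonadal fat (6.67%, against 4.21% of all genes), while 0 had a lower one (against 0.761%). These were Ccl9, with a gonadal minus inguinal difference in log2 fold change of 1.90 ± 0.63 (SE, adjusted p = 0.946), Ccl6 with 1.64 ± 0.54 (SE, adjusted p = 0.941) and Ccr2 with 0.99 ± 0.37 (SE, adjusted p = 0.978). Without mouse M6 the count was 0 higher and 3 lower. Over all genes, 952 then had an unadjusted p under 0.05 in either direction, against 725 with all mice. An effect of the knockout on these genes that is particular to inguinal fat was therefore not shown.

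**Figure D4:**
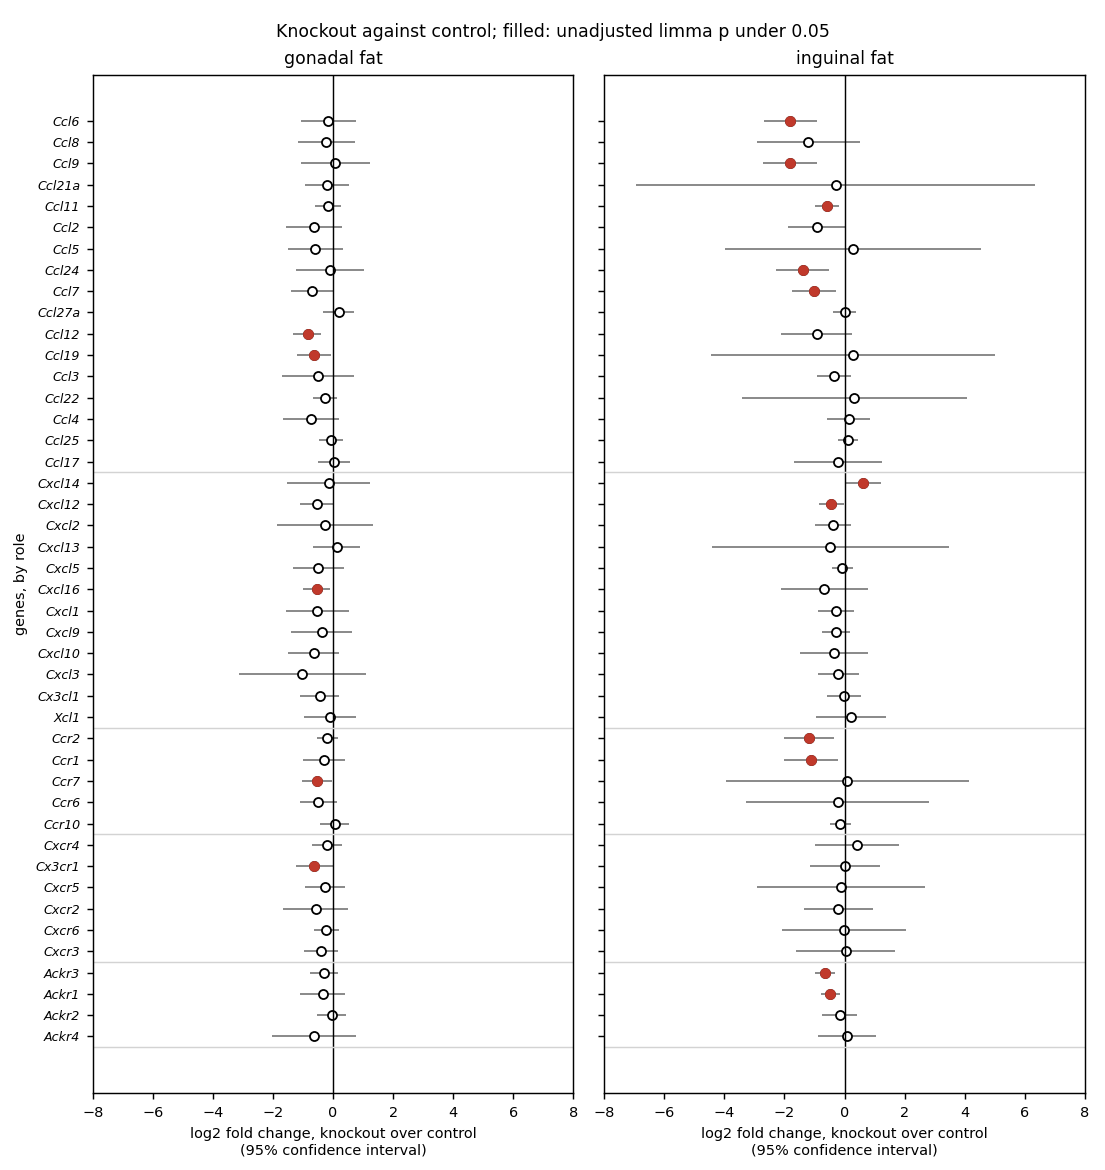
Knockout minus control log2 fold change of 44 members in gonadal fat and in inguinal fat, with 95% confidence intervals, on the log2(FPKM + 0.5) scale; filled points have an unadjusted p under 0.05. In gonadal fat 39 of 44 points lie below 0; in inguinal fat Ccl6 and Ccl9 lie lowest at -1.80 and -1.82, and the lymphoid genes have the widest intervals.

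The largest scatter in the family followed 2 inguinal pads and not the genotype. The pads of knockout M9 and control M7 had summed T and NK cell marker levels of 9.45 and 9.92 FPKM, against 219 and 327 FPKM in knockouts M5 and M12 and 288 and 219 FPKM in controls M6 and M10. In both of these pads 18 of the 45 members (40.0%) were below all other 4 inguinal pads, against 30.7% of all genes. For 11 members (24.4%, against 3.06% of all genes) the gap was more than 5-fold: Ccl5, Ccl17, Ccl19, Ccl21a, Ccl22, Cxcl13, Ccr6, Ccr7, Cxcr2, Cxcr5 and Cxcr6. These counts describe the pads and were not tested, since the pads were singled out from their marker levels. Some of the gaps rest on few reads in M9 and M7: 2 and 1 for Ccl17, 2 and 4 for Ccl19, 5 and 3 for Ccr6, and 6 and 7 for Cxcr2. Ccl17 had only 11 to 33 reads in the other 4 pads, and Cxcr2, the neutrophil receptor, 56 to 130.

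The 11 include the ligands and receptors that organise lymph nodes. Ccl21a had 90.4 and 163 FPKM in knockouts M5 and M12 and 124 and 96.6 FPKM in controls M6 and M10, but 0.29 FPKM in knockout M9 and 1.27 FPKM in control M7. Ccl19 had 15.5 and 22.1 FPKM in knockouts M5 and M12 and 18.1 and 8.63 FPKM in controls M6 and M10, but 0.06 FPKM in M9 and 0.16 FPKM in M7. Their receptor Ccr7 had 11.0 and 20.9 FPKM in M5 and M12 and 16.7 and 13.1 FPKM in M6 and M10, but 0.52 FPKM in M9 and 0.39 FPKM in M7. Cxcl13, which attracts B cells into follicles, had 28 and 31.6 FPKM in M5 and M12 and 35.2 and 22.3 FPKM in M6 and M10, but 0.68 and 3.03 FPKM in M9 and M7, and its receptor Cxcr5 had 6.90 to 11.5 FPKM in those 4 pads, but 0.74 and 1.1 FPKM in M9 and M7. Ccl22, a dendritic cell ligand of Ccr4, had 5.12 to 14.3 FPKM in the 4 pads and 0.16 and 0.28 FPKM in M9 and M7. Ccl5, made by T and NK cells, had 32.0 to 72.0 FPKM in the 4 pads and 2.42 and 1.74 FPKM in M9 and M7.

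Summed B cell markers split the pads in the same way, at 350 to 651 FPKM in the 4 pads and 76.5 and 41.1 FPKM in M9 and M7, though not every single lymphocyte marker did. Cd3e of T cells had 14.5 to 22.2 FPKM in the 4 pads and 0.75 and 0.76 FPKM in M9 and M7. The gonadal pads showed no such split: Ccl21a was at 108 to 202 FPKM, Ccr7 at 1.97 to 4.62 FPKM and Cxcl13 at 22.8 to 56.9 FPKM in all 6. With 1 such pad in each genotype, the knockout comparison of these genes had wide errors (Ccl21a -0.29 ± 2.66 and Ccl19 0.29 ± 1.90, SE) and could have missed a change of several fold. The differences of the myeloid members and Ackr3 were as large without the 2 pads: the log2 fold change in the remaining 2 knockouts against 2 controls was -1.87 for Ccl6, -1.97 for Ccl9, -1.43 for Ccr2, -1.32 for Ccr1 and -0.80 for Ackr3. That of Cxcl14 was 0.32 without them, against 0.61 with them. Between the 2 pads themselves, Ccl6 was at 23.8 FPKM in knockout M9 and 76.5 FPKM in control M7, and Ccl9 at 8.24 and 24.8 FPKM.

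**Figure D5:**
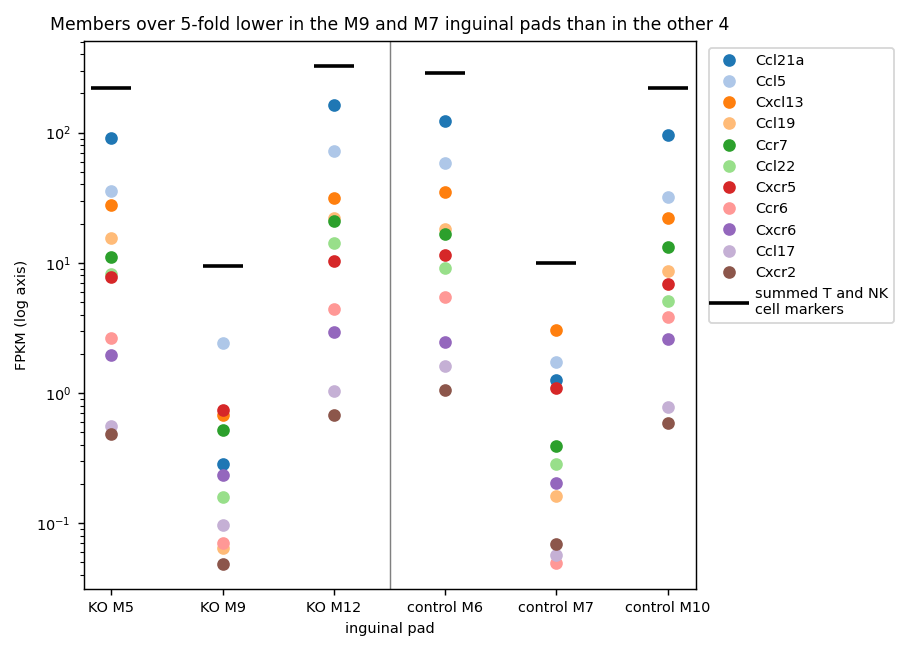
Levels of the 11 members (log axis, FPKM) in each of the 6 inguinal pads, knockout pads left of control pads, with black lines at the summed T and NK cell marker level. The points of knockout M9 and control M7 lie more than 5-fold below those of the other 4 pads for every gene drawn, in both genotypes.

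Genes that work with the family were counted from lists, to be read against all genes tested, of which 56.1% were below 0 in gonadal and 70.4% in inguinal fat and 4.45% and 11.8% were lower at an unadjusted p under 0.05. Of 15 chemoattractant genes outside the symbol rule (such as the formyl peptide, complement and chemerin receptors and the platelet chemokines), all 15 had log2 fold changes below 0 in each depot, and 0 passed an adjusted p under 0.05. At an unadjusted p under 0.05, 3 were lower in knockout gonadal pads (Ppbp, Cmklr1 and C5ar2) and 7 in knockout inguinal pads, Fpr2, a formyl peptide receptor, having the lowest adjusted p among them (0.0580, log2 fold change -0.72 ± 0.05, SE) at means of 0.046 ± 0.024 FPKM in knockouts and 0.397 ± 0.019 FPKM in controls (SD), under the pseudocount. Of 30 genes of chemokine receptor signalling, 26 were below 0 in gonadal and 27 in inguinal fat. Of these, Itgal, Itga4 and Arrb1 were lower in gonadal pads at an unadjusted p under 0.05, and Pik3r6, Rgs18 and Grk5 were lower and Adrbk2 higher (0.67) in inguinal pads. Of 33 tested inducers of chemokine genes, cytokines, their receptors and NF-kappaB components, 31 were below 0 in gonadal and 27 in inguinal fat. Il17ra (-0.80 ± 0.14, SE), Tlr2 and Nfkb1 were lower in gonadal pads, and Il1r1 and Ifngr1 in inguinal pads, at an unadjusted p under 0.05. Between depots, 26 of 30 signalling genes and 25 of 33 inducers were higher in gonadal fat at an adjusted p under 0.05 and none was lower (44.5% and 19.5% of all genes), with median differences of 1.08 for both lists and 0.23 over all genes.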

How the data were processed

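Per the labels' protocols, a Qiagen RNeasy kit gave the total RNA and a NEBNext Ultra kit the libraries. CASAVA, STAR and the build mm10 are named in the submitters' processing notes; the sources used here name no counting tool and no strand setting. The authors deposited FPKM per gene and library and, for each depot, a table of called genes with read counts, log2 fold changes and adjusted p-values. Library totals worked out from those read counts were 14953657 to 25438811, which sets how finely low genes are measured. With these totals the authors' read counts before scaling were recovered for all genes from the deposited FPKM. Of the recovered values, 100% lay within 0.001 of a whole number, or within a share of 0.001 of the count where it was above 1. Large counts pass that check whatever their fraction.

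The 24 columns carry the groups but not the individual samples of the labels. The 2 libraries of a pad were averaged, giving 3 mice per genotype. Genes with a mean of at least 0.5 FPKM were fitted as log2(FPKM + 0.5) in limma 3.58.1 (trend; R 4.3.3), with Benjamini-Hochberg adjustment over 14577 genes. A fold change on this scale understates that of low genes. Nothing in the sources says how the mice were housed or processed, so p-values measure the spread between these 3 mice. edgeR 4.0.16 and DESeq2 1.42.0 on the recovered reads were alternatives, beside other pseudocounts, filters, quantile normalization, marker covariates and leaving out each mouse.

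On simulated data with 200 changed genes among 14577, 54% of the 2-fold changes and 91% of the 4-fold ones were found in the gonadal design, 66% and 87% in the inguinal design, and 89% and 99% in the depot design. The changed genes were drawn from the better expressed ones, and noise was drawn for each gene on its own with its observed SD. Differences in cell content that many genes share were not simulated. These percentages are therefore no measure of what the real pads could show, where 0 of the 14577 genes passed in either knockout comparison. The 2 pads of a mouse come from the same animal, so the depot and interaction tests were also run with the mouse as a block. The correlation of the deviations of a mouse's 2 pads was 0.136, 0.007 and -0.095 in knockouts M5, M9 and M12 and 0.119, 0.043 and 0.033 in controls M6, M7 and M10. Named genes were those with an unadjusted p under 0.05 between genotypes or in the interaction, the 8 with the widest depot difference and the 8 with the highest mean level. Other members named beside them, such as the lymphoid genes, were named after their values were seen. The members and lists were chosen with earlier results of these data known. 1 member and 1 marker are not reported here and are not drawn, though they stay in the counts.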

Additional observations from a re-analysis of the deposited data

How the results depend on the processing

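In the knockout comparisons, the counts of members at an unadjusted p under 0.05 moved most. In gonadal fat the 5 lower members became 3 with quantile normalization, 3 (and 1 higher) with the macrophage covariate, 15 with 6 libraries as replicates, and 3 to 7 on leaving out each mouse. Over all 14577 genes, 1323 had such a p in either direction with the main settings and 1233 with quantile normalization. That number was 510 with the macrophage covariate, 3424 with 6 libraries as replicates, and 789 to 1896 on leaving out each mouse. With 6 libraries as replicates, 2 gonadal and 13 inguinal members were called at an adjusted p under 0.05, and DESeq2 called 9 inguinal members. Of the 14577 genes, 6 libraries as replicates called 1161 in gonadal and 2265 in inguinal fat, and DESeq2 called 664 in inguinal fat. In inguinal fat the 11 lower members became 0 with the macrophage covariate and 7 to 13 on leaving out each mouse, 7 being without knockout M9. The 1 higher member became 0 without the filter and without the 2 pads low in T cell markers, 2 with a B cell covariate, 11 with the macrophage covariate and 0 to 1 on leaving out each mouse. Over all 14577 genes in inguinal fat, 2210 had an unadjusted p under 0.05 in either direction with the main settings. That number was 1989 with the macrophage covariate, 3630 with the B cell covariate and 2486 without the 2 pads. It was 1465 to 3107 on leaving out each mouse, 3107 being without control M7. Without the filter it was 2787 of 26816 genes. The inguinal median of -0.22 became 0.58 with the macrophage covariate and -0.72 to -0.02 on leaving out each mouse, -0.72 being without control M7. Ccr1 in inguinal fat changed sign, to 0.05, with the macrophage covariate. The causes were not tested.

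Foxo1 passed an adjusted p under 0.05 in gonadal fat with 6 libraries as replicates (-1.18) and in DESeq2 (-1.28). In inguinal fat it passed with 6 libraries (-1.86), in DESeq2 (-1.82), and with a B cell (-1.85) or T cell (-1.87) covariate. In the interaction, 6 libraries as replicates called 3 members, beside 265 of the 14577 genes. They gave 7 members higher at an unadjusted p under 0.05, against 3 with mice, and edgeR and DESeq2 gave 5 each. Over all 14577 genes, 2219 had such a p in either direction with 6 libraries, against 725 with mice, 602 in edgeR and 694 in DESeq2. Leaving out each mouse gave 0 to 7 higher, 0 to 3 lower, and a median of -0.38 to 0.32, beside 397 to 952 of the 14577 genes in either direction. Between depots, the median of 1.17 became 1.68 with a mean of at least 2 FPKM, 0.77 with quantile normalization and 0.80 without the 2 pads low in T cell markers, and members lower at an unadjusted p under 0.05 numbered 10 with quantile normalization, edgeR and DESeq2 and 12 without those pads. Over all 14577 genes, 9846 had such a p in either direction with the main settings. That number was 9892 with quantile normalization, 9636 in edgeR, 9658 in DESeq2 and 9169 without those pads. The share of all genes that was lower was counted only with the main settings (20.5%). With the replicate block for the mouse, 28 members were called between depots and 0 in the interaction, as without it, beside 9427 and 0 of the 14577 genes. In that fit 3 members were higher in the interaction at an unadjusted p under 0.05, beside 866 of the 14577 genes in either direction. For the knockout comparisons, no paired analysis was possible because the genotypes are different animals and the column names carry no shared replicate number.

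Of the values of single named genes under the alternatives, 462 kept direction and side of the threshold, 26 passed it in addition and 1 changed sign. That threshold was on the adjusted p, which no member passed in the knockout and interaction comparisons with the main settings. Members were named from those comparisons by their unadjusted p, so for them keeping that side does not measure stability. Some no longer met the unadjusted limit under an alternative, such as gonadal Cx3cr1 without the filter and gonadal Ccr7 with quantile normalization. Leaving out the gonadal pads with male tract transcripts leaves 1 control, which was assumed to vary like the others. The T cell covariate and the settings that leave out marked pads between depots, or the pads low in T cell markers, were chosen after seeing the data.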
